A study of Homo sapiens with 9 samples.

Results

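The chromatin of the TLX3 and BCL11B loci was described from 5 peak lists of DND-41, an established human cell line of T-cell acute lymphoblastic leukemia (T-ALL). The members are all peaks that touch chr5:170600000-170900000, which holds TLX3, or chr14:98400000-99850000, which holds BCL11B and the gene-poor stretch downstream of it (hg19). These windows held 174 of the 183634 peaks of the series, 23 in the TLX3 window and 151 in the BCL11B window. Position alone made a peak a member.

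The peaks came from CUT&RUN, in which an antibody directs a nuclease to its target in the nucleus and the released DNA is sequenced. H3K27ac, a histone mark of active promoters and enhancers, was profiled in cells given ACBI-1 at 100 nM (labelled ACBI), a compound that has the ATPases of the SWI/SNF chromatin remodelling complex degraded, and in cells given its vehicle, DMSO. RUNX1 (a transcription factor of blood cells), BRG1 (the SMARCA4 ATPase of SWI/SNF) and H3K4me3 (a mark of active promoters) were profiled in DND-41 cells whose labels name no treatment, so these lists cannot show where the factors sat after ACBI. There was 1 library per list, all of the same cell line, so the differences are without replicates and without p-values. The H3K27ac list was shorter in ACBI, with 52967 peaks, than in DMSO, with 90495 peaks. The peaks carry no signal value and the depth is unknown. Bounds given with a share are its 95% interval by the exact Clopper-Pearson method. They reflect counting error alone and treat neighbouring peaks as independent.

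TLX3 encodes a homeobox transcription factor that is normally silent in T cells and acts as an oncogene when switched on in T-cell leukemia. BCL11B encodes a zinc-finger transcription factor needed for T-cell commitment, and its protein is also a subunit of SWI/SNF complexes in T cells. In the translocation t(5;14), regulatory DNA from the BCL11B side of chromosome 14 is placed near TLX3, and DND-41 is known to carry this rearrangement. Reads from the rearranged and the normal chromosomes fall on the same hg19 positions, so the alleles cannot be told apart here.

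The starts of both genes are shown because the promoter peaks described below lie on them. Each RefSeq promoter window holds 300 bases around the annotated start, most of them upstream, and is given 5′ to 3′ on the strand of the gene (GRCh38.p14). Capitals mark matches on either strand to the GC box, spelled GGGCGG, or to the motif that is spelled CCAAT. The TLX3 window is chr5:171308998-171309297 (plus strand) and the BCL11B window is chr14:99272148-99272447 (minus strand).
TLX3: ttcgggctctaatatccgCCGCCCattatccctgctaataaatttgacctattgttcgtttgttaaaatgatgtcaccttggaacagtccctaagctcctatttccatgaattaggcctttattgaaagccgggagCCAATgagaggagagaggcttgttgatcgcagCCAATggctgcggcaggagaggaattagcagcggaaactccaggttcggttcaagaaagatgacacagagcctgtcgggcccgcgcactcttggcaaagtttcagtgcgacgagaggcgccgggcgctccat
BCL11B: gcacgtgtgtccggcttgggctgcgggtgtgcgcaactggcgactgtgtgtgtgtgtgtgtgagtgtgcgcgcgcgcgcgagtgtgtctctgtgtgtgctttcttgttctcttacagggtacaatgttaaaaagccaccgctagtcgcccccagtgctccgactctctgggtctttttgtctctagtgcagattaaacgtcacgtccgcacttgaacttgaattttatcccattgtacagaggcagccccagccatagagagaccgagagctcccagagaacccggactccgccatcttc
The TLX3 sequence held 2 CCAAT boxes, both on the strand of the gene, and 1 GC box on the opposite strand. The BCL11B sequence held neither motif. Of the 35116 promoter windows in the RefSeq table, 34.6% held a CCAAT box and 45.0% held a GC box. The first of these was added to the search after the sequence had been seen. Neither sequence contained the RUNX core, searched on either strand as TGTGGT and also in its other spelling as TGCGGT, which 19.6% of all promoter windows held. Neither held the TATA box, spelled TATAAA, which 11.5% held. This says only that these letters are missing from these 300 bases, and the peak positions below are in hg19, the other build.

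TLX3 carried the full set of active promoter features. A 7018 bp H3K4me3 peak (chr5:170733298-170740315) covered the whole gene (chr5:170736288-170739138, plus strand, 2.85 kb) and ranked 18 by width among the 12834 H3K4me3 peaks. A second H3K4me3 peak of 449 bp followed it downstream (chr5:170740484-170740932). Just before the gene's 5′ end lay a BRG1 peak of 241 bp (chr5:170736002-170736242), whose near edge was 46 bp from that end. A RUNX1 peak of 497 bp (chr5:170735640-170736136) overlapped it by 135 bp and ended 152 bp before the gene. Another RUNX1 peak of 265 bp lay further upstream (chr5:170734008-170734272), 2016 bp from the 5′ end. RUNX1 was common at H3K4me3 peaks this wide: of the 18 peaks of at least this width, 17 (94.4%) overlapped RUNX1 and 12 (66.7%) overlapped BRG1.

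H3K27ac at the TLX3 promoter was called in both conditions. The peak over the 5′ end measured 3145 bp in ACBI (chr5:170734196-170737340) and 3732 bp in DMSO (chr5:170733515-170737246). The ACBI peak covered 81.8% of the DMSO peak, and both lists covered the BRG1 peak and the RUNX1 peak of 497 bp in full. The shorter cover in ACBI was at the upstream edge: of the 265 bp RUNX1 peak there, 77 bp lay in ACBI H3K27ac and all 265 bp in DMSO H3K27ac. Inside the gene, a peak of 417 bp in ACBI (chr5:170738094-170738510) lay within a peak of 884 bp in DMSO (chr5:170737946-170738829). Over the TLX3 gene as a whole, H3K27ac covered 1.47 kb in ACBI and 1.84 kb in DMSO.

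Downstream of TLX3 the lists differed. An ACBI peak of 1012 bp (chr5:170739639-170740650) had no overlapping DMSO peak. It is called gained here, and 844 bp of it lay on H3K4me3. The nearest DMSO peak was 809 bp away, so it does not count as gained when a peak within 1 kb is accepted. The other gained peak measured 237 bp (chr5:170743325-170743561). Further on, a peak of 643 bp in ACBI (chr5:170744456-170745098) and a peak of 724 bp in DMSO (chr5:170744725-170745448) overlapped by 374 bp. On the upstream side, no ACBI peak overlapped 3 of the DMSO peaks, which counts them as lost: 885 bp at chr5:170722121-170723005, 543 bp at chr5:170628238-170628780 and 340 bp at chr5:170634347-170634686. None of the 3 touched RUNX1, BRG1 or H3K4me3, which held for 93.3% of all lost peaks. All 3 H3K4me3 peaks of the TLX3 window overlapped ACBI H3K27ac, beside 78.5% of the whole H3K4me3 list, and 2 of 3 overlapped DMSO H3K27ac, beside 92.8%.

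The remaining features of the TLX3 window formed a promoter-like site about 79.4 kb downstream of the TLX3 5′ end. RefSeq lists NPM1, which encodes the nucleolar protein nucleophosmin, as the next protein-coding gene after TLX3. The peak was not assigned to it, since the gene table is on another build. An H3K4me3 peak of 3538 bp (chr5:170813951-170817488) held a BRG1 peak of 318 bp (chr5:170814537-170814854) and RUNX1 peaks of 240 bp (chr5:170814501-170814740) and 344 bp (chr5:170815401-170815744). H3K27ac here was broken up in ACBI. Peaks of 404 bp (chr5:170814022-170814425) and 309 bp (chr5:170815248-170815556) were called in ACBI, against a peak of 2277 bp in DMSO (chr5:170813431-170815707), of which they covered 31.3%. The BRG1 peak and the RUNX1 peak over it lay in the gap: ACBI H3K27ac covered 0 bp of either and began 111 bp and 75 bp away, while DMSO H3K27ac covered both in full. The RUNX1 peak of 344 bp had 156 bp in ACBI H3K27ac and 307 bp in DMSO H3K27ac.

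**Figure D1:**
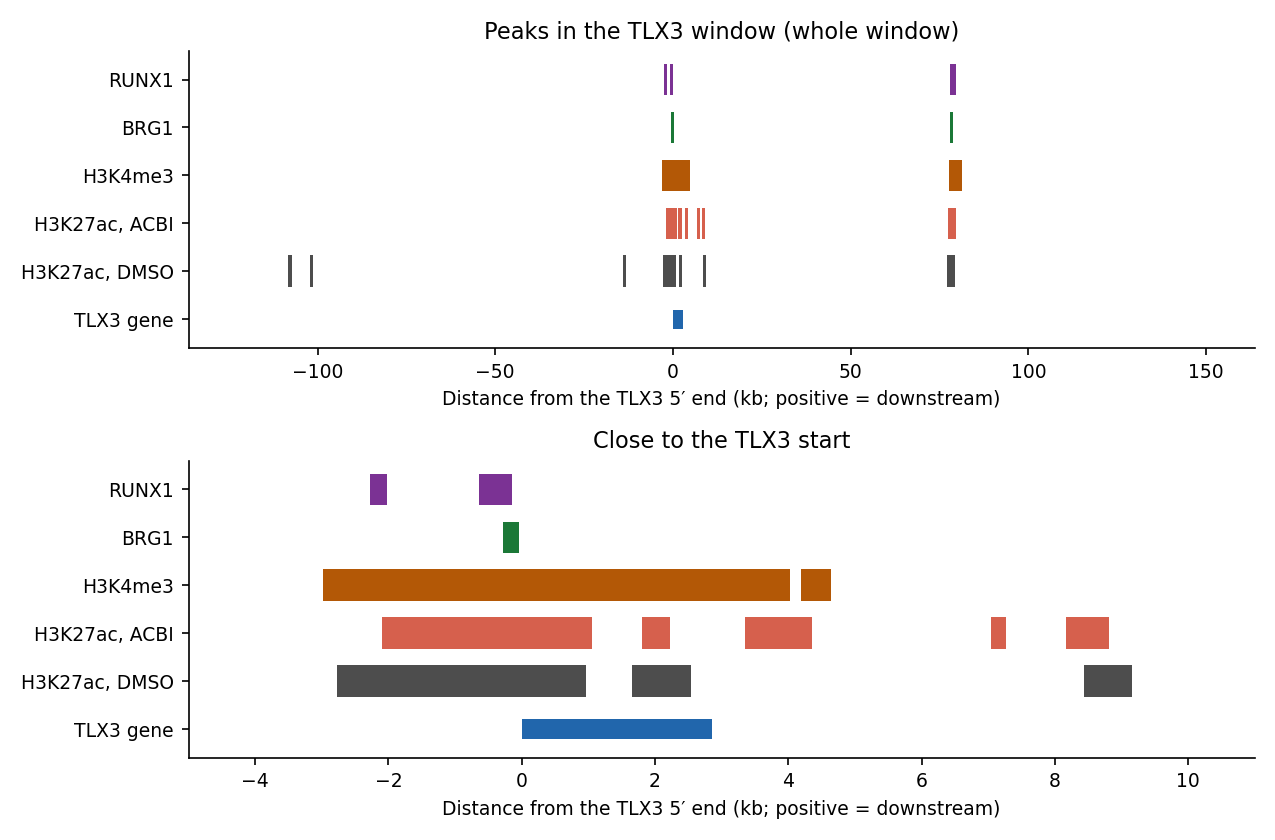
Peaks of the 5 lists in the TLX3 window (top) and close to the gene (bottom), by distance from the TLX3 5′ end in kb. Each bar is a peak and the lowest bar is the gene, and very narrow peaks are drawn at a minimum width. H3K27ac spans the 5′ end in ACBI and in DMSO, while the DMSO peak of 2277 bp far downstream is matched by 2 short ACBI peaks.

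Counted over the TLX3 window, 3 of 7 DMSO H3K27ac peaks were lost (42.9%, 95% interval 9.90 to 81.6), beside 59.1% over the whole list. Of the 7 ACBI peaks 2 were gained (28.6%, 3.67 to 71.0), beside 21.4%. RUNX1 peaks overlapped BRG1 in 2 of 4 cases, beside 29.8% of all RUNX1 peaks, and both BRG1 peaks overlapped RUNX1, beside 80.7%. All 4 RUNX1 peaks overlapped H3K4me3 (43.0% over the whole list) and DMSO H3K27ac (83.8%), and 3 of 4 overlapped ACBI H3K27ac (64.3%). The BRG1 peaks lay in ACBI H3K27ac in 1 of 2 cases, beside 70.6% of all BRG1 peaks, and in DMSO H3K27ac in 2 of 2, beside 91.9%. At these numbers the 95% interval of each share held the value of the whole list, and other rules moved several of the shares. The share lost was 71.4% when 50% of a peak had to be covered, beside 75.6% over the whole list by that rule. It was 66.7% with peaks of at least 500 bp, beside 55.2%, and 20% with equal numbers of the widest peaks from each list, beside 40.7%. With 50% of the peak covered, 1 of the 4 RUNX1 peaks was in ACBI H3K27ac, beside 58.1%. H3K27ac covered 6.17 kb of the window in ACBI and 9.38 kb in DMSO, a ratio of 0.657, against 0.556 over the whole lists. The order of these 2 ratios depends on the rule. With peaks of at least 500 bp they were 0.531 and 0.554. With peaks within 1 kb merged they were 0.856 and 0.549, and with equal numbers of the widest peaks 0.725 and 0.618.

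The BCL11B gene (chr14:99635625-99737822, minus strand, 102198 bp) had a wide H3K4me3 peak at its start and no RUNX1 or BRG1 peak. Its 5′ end lay in an H3K4me3 peak of 4945 bp (chr14:99733915-99738859), which ranked 87 by width among all H3K4me3 peaks. Of the 87 H3K4me3 peaks of at least this width, 72 (82.8%) overlapped RUNX1 and 45 (51.7%) overlapped BRG1, and the BCL11B peak overlapped neither. Further H3K4me3 peaks lay inside the gene, of 903 bp (chr14:99732607-99733509), 308 bp (chr14:99731902-99732209) and 737 bp (chr14:99731039-99731775). The remaining ones near the gene lay upstream of it, of 499 bp (chr14:99739325-99739823) and 189 bp (chr14:99740522-99740710). No RUNX1 or BRG1 peak lay anywhere in the gene body or on the upstream side of the window.

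At the BCL11B 5′ end, H3K27ac stopped short of the start in ACBI. The ACBI peak of 4336 bp (chr14:99733325-99737660) ended 162 bp inside the gene. The DMSO peak of 7887 bp (chr14:99731010-99738896) ran 1074 bp past the 5′ end. Of the 4945 bp H3K4me3 peak, 3746 bp lay in ACBI H3K27ac and all 4945 bp in DMSO H3K27ac. Deeper in the gene, an ACBI peak of 6168 bp (chr14:99726343-99732510) spanned a DMSO peak of 2921 bp (chr14:99727050-99729970) and part of the 7887 bp DMSO peak. In all, ACBI peaks covered 74.0% of the 7887 bp DMSO peak. The upstream H3K4me3 peaks of 499 bp and 189 bp lay in no H3K27ac peak of either condition.

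Over the BCL11B gene body, H3K27ac covered 32.7 kb in ACBI and 29.8 kb in DMSO. The ratio of 1.10 compares with 0.556 over the whole lists. Only part of this cover was shared: 17.5 kb lay in both lists, 15.2 kb in ACBI alone and 12.3 kb in DMSO alone. This ratio was singled out after its value was seen. It was 1.06 with peaks of at least 500 bp, 1.14 with peaks within 1 kb merged and 1.14 with equal numbers of the widest peaks. When the autosomes and X were cut into consecutive stretches of the same length, 1858 stretches had DMSO H3K27ac over at least 20% of their length. Their median ratio was 0.574, and 35 of them (1.88%) had a ratio of at least 1.10.

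The BCL11B gene body held all 9 gained peaks of its window, among 23 ACBI peaks there (39.1%, 19.7 to 61.5). Over the window 9 of 36 ACBI peaks were gained (interval 12.1% to 42.2%), and over the whole list 21.4% were, a value that both intervals hold. The widest was the 3642 bp peak at chr14:99650196-99653837, 85.8 kb into the gene and 1201 bp from the nearest DMSO peak, which ranked 1 by width among all 11324 gained peaks. Next by width were peaks of 1675 bp (chr14:99656019-99657693), 1090 bp (chr14:99672846-99673935), 881 bp (chr14:99724645-99725525) and 815 bp (chr14:99705102-99705916). None of the 9 overlapped H3K4me3, BRG1 or RUNX1, as was so for 98.6% of all gained peaks. Their distances to the nearest DMSO peak ran from 78 to 3603 bp, and 5 of the 9 had a DMSO peak within 1 kb, beside 42.0% of all gained peaks.

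Lost DMSO peaks of the BCL11B gene body lay close to ACBI peaks. Of its 20 DMSO peaks 8 were lost (interval 19.1% to 63.9%), beside 59.1% over the whole list. Without an ACBI peak even within 1 kb were 3 of the 20, beside 51.0% over the whole list. An ACBI peak lay within 1 kb of 5 of the 8, and the farthest was 3603 bp away. Over the whole list 13.7% of lost peaks had an ACBI peak within 1 kb. ACBI H3K27ac covered 32.0% of the gene body, and 1.14% of stretches of its length had at least as much. The whole list is therefore no background of like density. All 6 gene-body DMSO peaks at least 2 kb wide were kept, beside 89.6% of all DMSO peaks of 2000 to under 10000 bp. Among them were peaks of 2991 bp (chr14:99666630-99669620), covered by ACBI over 56.1%, and of 2044 bp (chr14:99695811-99697854), covered over 97.7%. The least covered of the 6, 2135 bp at chr14:99722230-99724364, was covered over 6.89%. Of the 12 kept DMSO peaks of the gene body 8 were covered by ACBI over at least 50%, beside 59.7% of all kept peaks. The widest lost peak of the gene body measured 1063 bp (chr14:99644340-99645402).

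The RUNX1 and BRG1 peaks of the BCL11B window all lay downstream of the gene, and most of them about 1 Mb away. Of the 17 RUNX1 peaks, 14 lay in the 100 kb at chr14:98600001-98700000, which starts 1038 kb and ends 1138 kb downstream of the BCL11B 5′ end. This stretch was chosen after the values were seen, as the pair of adjacent 50 kb steps with the most DMSO H3K27ac. It also held 3 of the 4 BRG1 peaks and no H3K4me3 peak. Among the 30330 stretches of 100 kb on the autosomes and X, this one included, 6 had at least 14 RUNX1 peaks (0.0198%) and 3 had at least as much RUNX1 peak length as its 11260 bp. For comparison, 515 stretches (1.70%) had at least 3 BRG1 peaks and 63 (0.208%) had at least its 73.8 kb of DMSO H3K27ac. The last rank uses the value the stretch was chosen by, so a high rank there follows in part from the choice. The RUNX1 and BRG1 ranks are not free of that choice either. Over the whole lists 83.8% of RUNX1 peaks and 91.9% of BRG1 peaks lay in DMSO H3K27ac. The RUNX1 and BRG1 values were not ranked among stretches of like DMSO cover.

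The distal stretch centred on a DMSO H3K27ac peak of 36374 bp (chr14:98645597-98681970), which ranked 44 by width of 90495. It held 7 RUNX1 and 3 BRG1 peaks. Domains of at least 10 kb numbered 970 in DMSO. Of these, 34 held at least 7 RUNX1 peaks and 34 held at least 3 BRG1 peaks, and the medians were 1 and 0. The 36374 bp domain was itself 44th by width among them, and its counts were not compared with domains of like width. Its neighbour, a DMSO peak of 15995 bp (chr14:98628803-98644797), held 4 RUNX1 peaks and no BRG1 peak. Another wide DMSO peak, of 8603 bp (chr14:98600664-98609266) held 2 RUNX1 peaks.

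At each of the 3 BRG1 sites of the distal stretch, the BRG1 peak lay wholly inside a wide RUNX1 peak. The widest RUNX1 peak of the window, 1662 bp at chr14:98664068-98665729, ranked 206 of 19893 and held the BRG1 peak of 240 bp at chr14:98664892-98665131. The RUNX1 peak of 1323 bp at chr14:98655300-98656622 held the BRG1 peak of 301 bp at chr14:98655714-98656014. The RUNX1 peak of 1260 bp at chr14:98676062-98677321 held the BRG1 peak of 280 bp at chr14:98676639-98676918. All 3 pairs were covered in full by H3K27ac in ACBI and in DMSO.

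The 11 RUNX1 peaks of the distal stretch without BRG1 included other sites of over 1 kb. They were led by peaks of 1490 bp (chr14:98641061-98642550), 1365 bp (chr14:98633525-98634889) and 1108 bp (chr14:98639542-98640649), all in the 15995 bp domain. Next came peaks of 686 bp (chr14:98689953-98690638), 643 bp (chr14:98653621-98654263) and 510 bp (chr14:98604839-98605348). The narrow ones measured 388 bp (chr14:98656772-98657159), 234 bp (chr14:98638447-98638680), 214 bp (chr14:98663044-98663257), 194 bp (chr14:98602583-98602776) and 183 bp (chr14:98648978-98649160). In all, 6 of the 14 RUNX1 peaks reached 1 kb, which 6.88% of all RUNX1 peaks did. Each of the 14 lay in full under H3K27ac in both conditions. Over the whole list 46.8% of RUNX1 peaks lay in full under H3K27ac in ACBI and 69.3% in DMSO.

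H3K27ac of the distal stretch was largely kept in ACBI. The 36374 bp domain was covered over 89.9% by ACBI peaks, the main one 32121 bp wide (chr14:98647308-98679428). The 15995 bp domain was covered over 97.6% by an ACBI peak of 15627 bp (chr14:98628786-98644412). The median cover of the 970 domains of 10 kb or more was 79.6%, and 274 and 115 of them were covered at least as fully as these. None of the 970 was lost. In total the stretch had 58.9 kb of H3K27ac in ACBI and 73.8 kb in DMSO, a ratio of 0.798. Of all stretches of 100 kb, 1916 had DMSO H3K27ac over at least 20% of their length. Their median ratio was 0.577, and 316 of them (16.5%) had a ratio of at least 0.798. The stretch had been chosen for its DMSO H3K27ac, which limits this comparison. Domains of at least 10 kb held 11 of the 17 RUNX1 peaks of the window, beside 9.30% of all RUNX1 peaks. All 11 lay in ACBI H3K27ac, as did 97.5% of the 1851 RUNX1 peaks in such domains over the whole list, so this count does not set the locus apart.

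**Figure D2:**
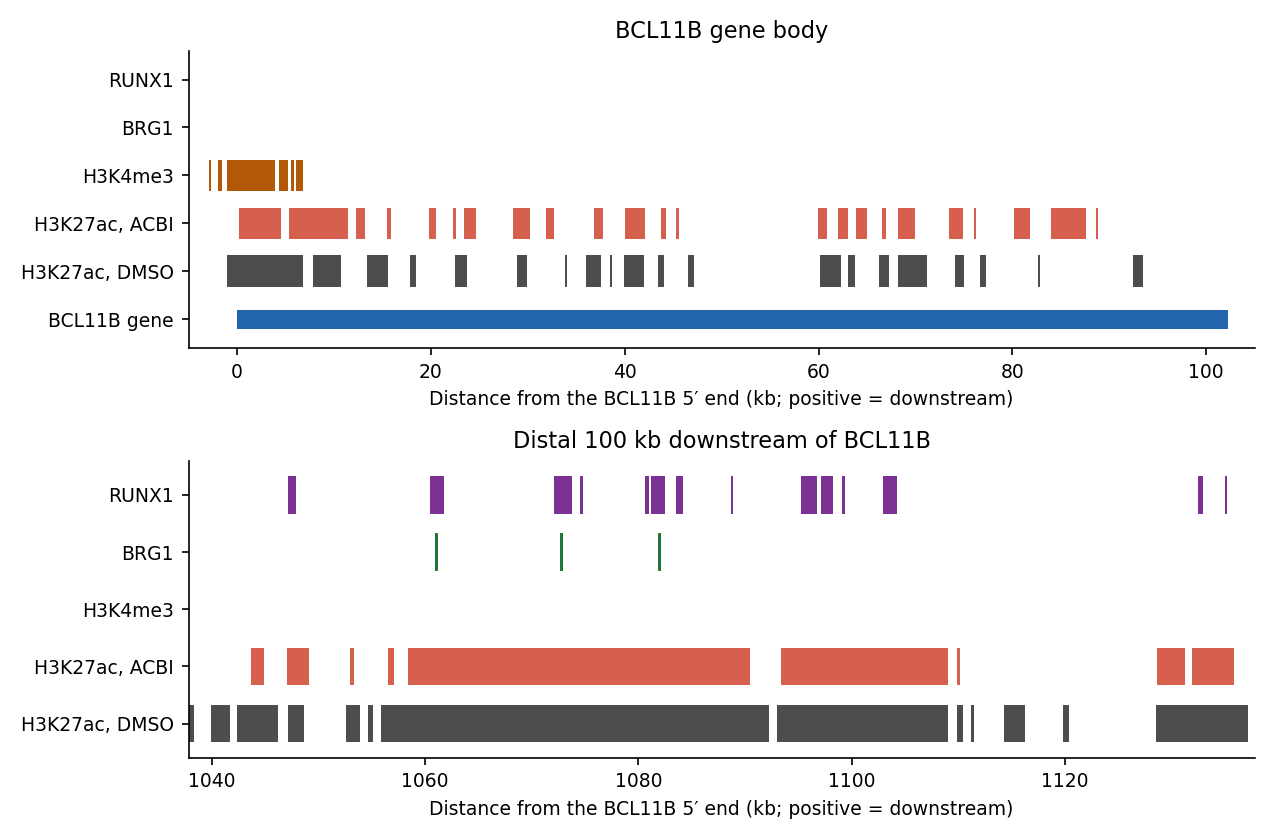
Peaks of the 5 lists over the BCL11B gene body (top) and the distal 100 kb (bottom), by distance from the BCL11B 5′ end in kb along the direction of transcription. Each bar is a peak, and very narrow peaks are drawn at a minimum width. The gene body has no RUNX1 or BRG1 peak and a patchwork of ACBI and DMSO H3K27ac. The distal stretch has 14 RUNX1 and 3 BRG1 peaks, all under H3K27ac peaks in both conditions. Of the RUNX1 peaks, 11 lie in DMSO domains of at least 10 kb.

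The 3 RUNX1 peaks outside the distal stretch differed in how H3K27ac was called in ACBI. A RUNX1 peak of 911 bp (chr14:98444182-98445092) lay at the far end of the window, 1293 kb downstream of the gene start. It overlapped an H3K4me3 peak of 1852 bp (chr14:98442681-98444532), the only H3K4me3 peak of the window away from the gene. H3K27ac covered both in full, with peaks of 5067 bp in ACBI (chr14:98441840-98446906) and 7898 bp in DMSO (chr14:98438792-98446689). A RUNX1 peak of 621 bp (chr14:99398118-99398738), 339 kb downstream, had 499 bp in an ACBI peak of 1297 bp (chr14:99398240-99399536) and all 621 bp in a DMSO peak of 2811 bp (chr14:99397131-99399941).

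The last of them was the RUNX1 site of the BCL11B window with no H3K27ac peak in ACBI. A RUNX1 peak of 394 bp (chr14:98485059-98485452) held a BRG1 peak of 163 bp (chr14:98485098-98485260) and lay inside a DMSO H3K27ac peak of 3079 bp (chr14:98483793-98486871). The nearest ACBI peak was 22914 bp from this DMSO peak. It was the widest lost peak of the window and ranked 335 by width among the 53490 lost peaks of the whole list.

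Over the window, 4 of 17 RUNX1 peaks overlapped BRG1 (23.5%, 6.81 to 49.9), beside 29.8% of all RUNX1 peaks. This count depends on the rule: since the BRG1 peaks are narrow, 0 of 17 had BRG1 over 50% of their length. By that rule 16.6% of all RUNX1 peaks did. The median width of RUNX1 peaks was 643 bp in the window and 402 bp over the whole list, so the rule asks for more BRG1 length here. All 4 BRG1 peaks lay wholly inside RUNX1 peaks. H3K4me3 was overlapped by 1 of the 17 (5.88%, 0.149 to 28.7), beside 43.0%. All 17 lay in DMSO H3K27ac (80.5 to 100), beside 83.8%, and 16 of 17 lay in ACBI H3K27ac (94.1%, 71.3 to 99.9), beside 64.3%. BRG1 peaks lay in ACBI H3K27ac in 3 of 4 cases, beside 70.6%. Of the 16 RUNX1 peaks off H3K4me3, all in DMSO H3K27ac, 15 were also in ACBI H3K27ac (93.8%, 69.8 to 99.8), beside 70.1% over the whole list. Those with BRG1 were in 3 of 4 cases, beside 81.9%, and those without BRG1 in 12 of 12 cases (73.5 to 100), beside 66.7%. The window's RUNX1 peaks share a few domains, so they are not independent of each other.

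**Figure D3:**
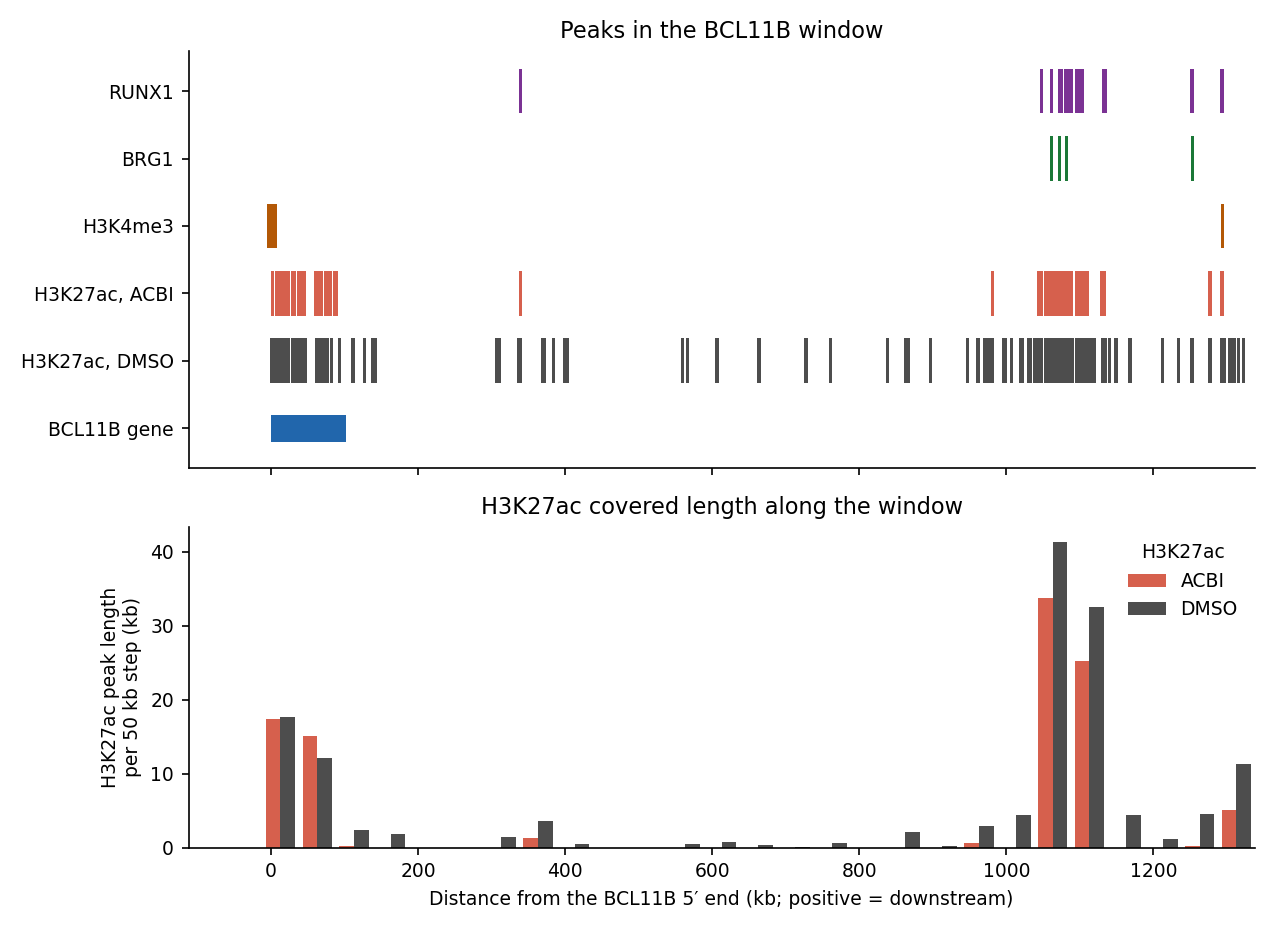
Top: peaks of the 5 lists over the BCL11B window, by distance from the BCL11B 5′ end in kb along the direction of transcription, with very narrow peaks drawn at a minimum width. Bottom: H3K27ac peak length in kb per 50 kb step in ACBI and DMSO. The 2 steps of the distal stretch had 33.7 and 25.2 kb in ACBI and 41.4 and 32.5 kb in DMSO, and the steps between them and the gene had little or none in ACBI.

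In the 936 kb between the gene and the distal stretch, H3K27ac covered 1.89 kb in ACBI and 21.2 kb in DMSO, a ratio of 0.0891. Of the 18 steps of 50 kb that lay wholly there, 2 had ACBI H3K27ac and 13 had DMSO H3K27ac, with at most 1297 bp per step in ACBI and 4413 bp in DMSO. In the 200 kb beyond the distal stretch, H3K27ac covered 5.32 kb in ACBI and 21.6 kb in DMSO, a ratio of 0.247. Both segments together had 7.21 kb in ACBI and 42.8 kb in DMSO, a ratio of 0.169. These ratios were not ranked among stretches of like length and DMSO cover. Over all 29 steps of the window, 22 had some DMSO H3K27ac, and 13 of these had no ACBI H3K27ac. The 50 kb step in which ACBI cover exceeded DMSO cover lay in the gene body, with 15.1 kb in ACBI and 12.2 kb in DMSO.

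**Figure D4:**
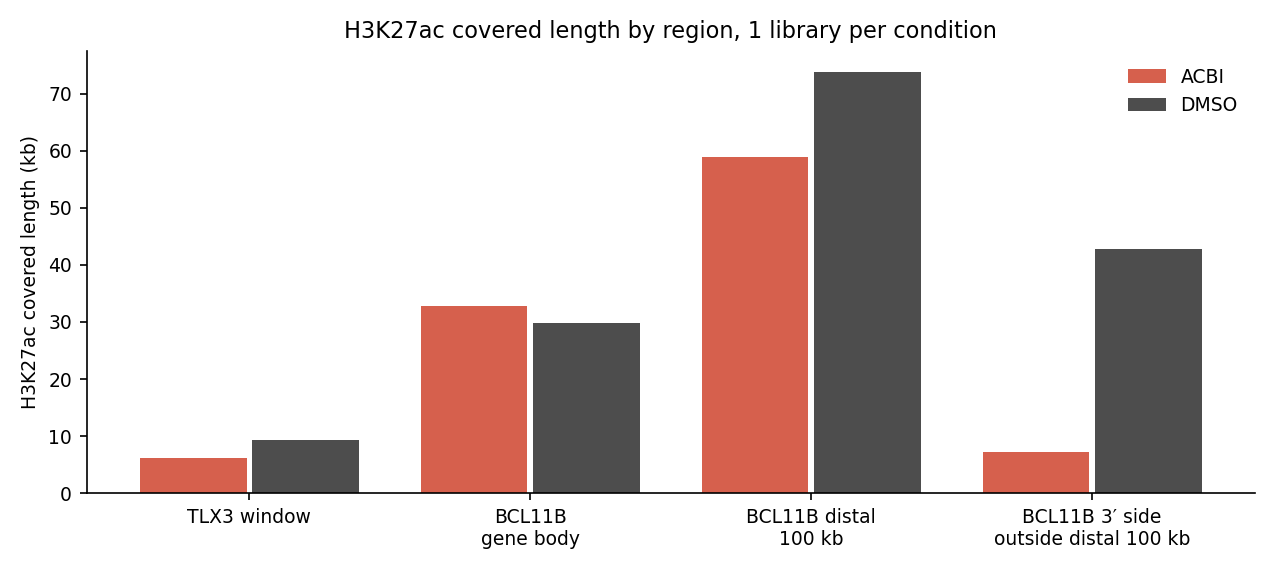
Length covered by H3K27ac peaks in kb in ACBI and DMSO for 4 regions, with 1 library per condition and no error bars. The BCL11B gene body had 32.7 kb in ACBI and 29.8 kb in DMSO, and the downstream side outside the distal stretch had 7.21 kb in ACBI and 42.8 kb in DMSO.

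Counted by peaks, 64 of the 87 DMSO H3K27ac peaks of the BCL11B window were lost (73.6%, 63.0 to 82.4), beside 59.1% over the whole list. Most of them were narrow, 55 of the 64 being under 1 kb. Of the 53490 lost peaks of the whole list, 26775 were under 500 bp and 17221 were 500 to under 1000 bp. The median width of lost peaks was 512.5 bp in the window and 499 bp over the whole list, so narrowness does not set the window apart. Of the DMSO peaks with no RUNX1, BRG1 or H3K4me3, 63 of 79 were lost (79.7%, 69.2 to 88.0), beside 68.0% over the whole list. With equal numbers of the widest peaks from each list the share was 48.8%, beside 40.7% over the whole lists. On the downstream side 56 of 67 were lost (83.6%, 72.5 to 91.5), and in the gene body 8 of 20. The difference between these regions was not tested. On the downstream side no lost peak had an ACBI peak within 1 kb, beside 13.7% of all lost peaks. There 42 of the 56 were more than 10 kb from one, a share not computed over the whole list. ACBI H3K27ac covered 0.635% of that side outside the distal stretch, so the whole list is no background of like density here either. After the RUNX1 site above, the widest lost peaks were 2186 bp (chr14:99598797-99600982), 2043 bp (chr14:98568752-98570794), 2021 bp (chr14:98621524-98623544) and 1877 bp (chr14:98596586-98598462), none with RUNX1, BRG1 or H3K4me3.

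Narrow DMSO peaks were lost more often than wide ones in the whole list, so the shares were also set side by side by width. Of the DMSO peaks under 500 bp in the window, 31 of 31 were lost (88.8 to 100), against 86.2% in the whole list. At 500 to under 1000 bp the shares were 85.7% (67.3 to 96.0; n = 28 peaks) in the window and 72.1% in the whole list. At 1000 to under 2000 bp they were 41.7% (15.2 to 72.3; n = 12 peaks) and 41.6%. At 2000 to under 10000 bp they were 28.6% (8.39 to 58.1; n = 14 peaks) and 10.4%. A peak that was not called in ACBI need not lack the mark, and the part of depth in these shares was not tested.

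**Figure D5:**
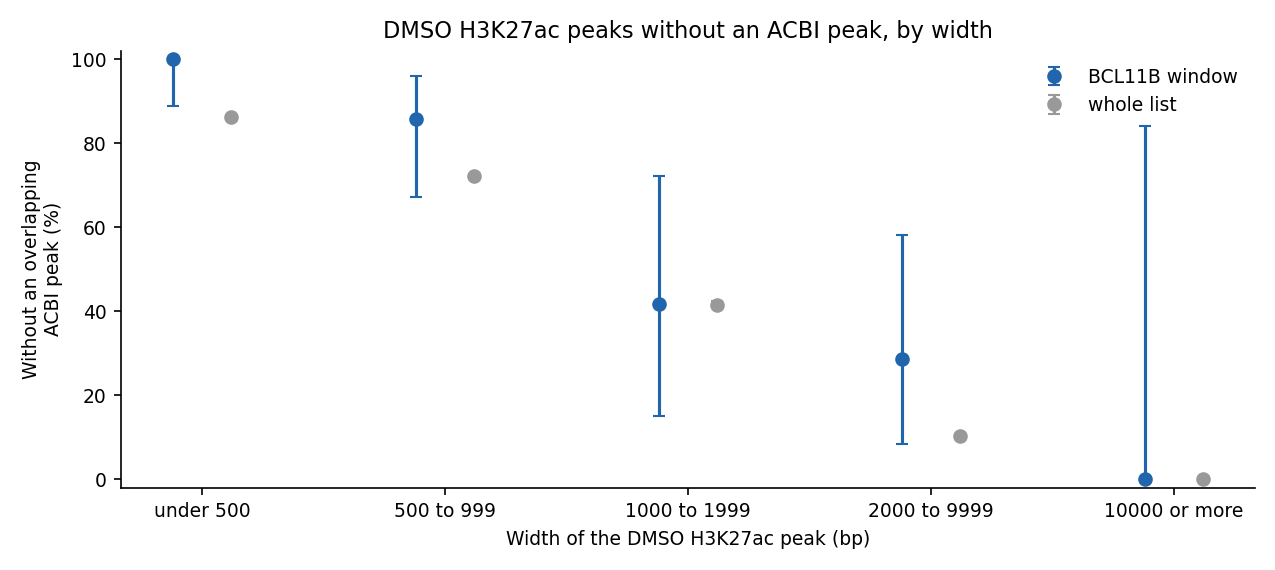
Share of DMSO H3K27ac peaks without an overlapping ACBI peak in %, by peak width in bp, for the BCL11B window and the whole list. Points are shares and bars are exact 95% intervals. In the window 31 of 31 peaks under 500 bp and 4 of 14 peaks of 2000 to under 10000 bp had none.

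Over the BCL11B window as a whole, H3K27ac covered 98.9 kb in ACBI and 148 kb in DMSO, a ratio of 0.670. Among stretches of the same length with DMSO H3K27ac over at least 2% of it, the median ratio was 0.519, and 175 of 1012 (17.3%) had a ratio of at least 0.670. Within it the ratio was 1.10 in the gene body, 0.798 in the distal stretch and 0.169 on the rest of the downstream side. The rest is what remains once the stretch chosen for the most DMSO H3K27ac is taken out. DMSO H3K27ac covered 3.77% of the rest and 73.8% of the distal stretch, so this contrast depends in part on that choice.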

How the data were processed

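Per the labels' protocols, nuclease-released DNA of DND-41 cells went into paired-end sequencing. The authors deposited positions only: each peak list gives chromosome, start, end and name, with no score, p-value or count. The submitters' processing notes name hg19 as the build and MACS2 and SEACR as tools. Per the file headers, MACS2 made the RUNX1 list, and the H3K27ac lists are broad peaks from the cutruntools pipeline with the same q-value threshold in both conditions. What made the H3K4me3 and BRG1 lists, the aligner, the use of controls and pooling are not given in the sources used. Of the 9 samples, the 4 IgG or input controls are not analysed here.

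Groups follow the sample titles. Overlaps of at least 1 bp were computed with numpy 2.4.6, scipy 1.17.1 and pandas 2.3.3 under Python 3.11.15, tested on simulated intervals and checked against bedtools 2.31.1 for 20 ordered pairs of lists, with 0 peaks differing. Plots used matplotlib 3.10.9. Covered length counts each base once. A peak belongs to the sub-region that holds its midpoint, and distances follow the direction of transcription. Stretches of equal length were laid end to end from the start of each autosome and X. By rule, the named sites are all BRG1 and H3K4me3 peaks, all RUNX1 peaks of the TLX3 window, the RUNX1 peaks of the BCL11B window with BRG1 and the 5 widest others, the H3K27ac peaks at the gene starts and, per window, the 5 widest DMSO, lost and gained peaks. The other RUNX1 and H3K27ac peaks named, the 100 kb stretch and the 10 kb domains were chosen after their values were seen. Gene positions came with the definition of the windows. RefSeq tables of GRCh38 gave strand, gene order and promoter sequences. Exons and introns were not used here, and without an hg19 annotation lineage marker genes were not tested. The members and lists were chosen with earlier results of these data known.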

Additional observations from a re-analysis of the deposited data

How the results depend on the processing

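For each window, the shares of DMSO peaks lost, ACBI peaks gained, RUNX1 peaks with BRG1 and RUNX1 peaks in ACBI and in DMSO H3K27ac were recomputed with 50% of the peak covered, with a peak within 1 kb accepted and with peaks wholly inside the windows. Except for RUNX1 with BRG1, these shares were also recomputed with H3K27ac peaks of at least 500 bp, with peaks within 1 kb merged and with equal numbers of the widest peaks from each list, as were the ratios of covered length for the windows, the BCL11B gene body and the distal stretch. The other shares and ratios were not recomputed. The ratios for the BCL11B gene body and the distal stretch, with their alternatives, were added after seeing the data. Of 66 recomputed values, 60 fell inside the 95% interval of the reported share or within 1.5 times the reported ratio, 6 did not, and 0 turned from above to below a ratio of 1 or the reverse. The intervals are wide, so falling inside them says little for the TLX3 window. No peak crossed a window edge, so the shares with peaks wholly inside the windows could not differ from those reported. The 6 were as follows. Whole-list values by the same rule stand in brackets. The share of DMSO peaks lost in the BCL11B window was 83.9% (75.6%) with 50% covered and 48.8% (40.7%) with equal numbers of the widest peaks. Its share of ACBI peaks gained was 11.1% (12.4%) with a DMSO peak within 1 kb accepted. Its share of RUNX1 peaks with BRG1 was 0% (16.6%) with 50% covered, since no BRG1 peak there is as wide as that. In the TLX3 window, 100% of RUNX1 peaks were in ACBI H3K27ac with a peak within 1 kb accepted (70.9%) and with merged peaks (64.7%). No paired analysis was possible because each condition had 1 library, and for the same reason no replicate could be left out. Depth is unknown and limits the reading of every peak that was not called.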

Other observations

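Each window's total peak length was ranked among stretches of its own length. In the TLX3 window, 11005 bp lay under H3K4me3, and 268 of 10102 stretches of the same length (2.65%) had at least as much. The BCL11B window had 9433 bp under H3K4me3, which 717 of 2079 stretches of its length (34.5%) reached. For RUNX1 the order was the other way: 13186 bp of RUNX1 peak length in the BCL11B window was reached by 154 of 2079 stretches (7.41%), and 1346 bp in the TLX3 window by 2385 of 10102 (23.6%). BRG1 peak length was 559 bp in the TLX3 window, reached by 1520 of 10102 stretches (15.0%), and 984 bp in the BCL11B window, reached by 843 of 2079 stretches (40.5%). These are ranks within single libraries and were not tested.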
